A study of Mus musculus with 4 samples.

Results

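Genes of glycolysis, of pyruvate and pentose phosphate metabolism and of the hypoxia-inducible factor pathway were examined in regulatory T cells of immunized mice, as a list of 40 genes chosen by symbol. A member was measured where a probe of the array was annotated with its symbol alone, and the brightest such probe was taken per gene. This gave 33 measured members among the 22180 genes measured in this way. Of the other 7, Aldoa, Tkt and Bnip3l were annotated only on probes that also name another gene, and Gpi1, Eno1, Mpc2 and G6pdx on no probe in the annotation used, so these 7 have no value here.

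The 4 groups were sorted 7 days after immunization with NP-OVA, a hapten coupled to ovalbumin, in complete Freund's adjuvant (CFA). KO TFR cells were PD1+CXCR5+YFP+ CD4+ follicular regulatory T cells of Prdm1fl/flFoxP3YFP-Cre mice, and WT TFR cells came through the same gate from FoxP3YFP-Cre mice. KO non-TFR and WT non-TFR cells were CXCR5-YFP+ CD4+ regulatory T cells of the same genotypes. All 4 groups carry the FoxP3 allele that makes YFP and Cre, the KO groups in addition carry floxed alleles of Prdm1, the gene of the repressor Blimp-1, and Cre is made wherever FoxP3 is expressed, so that both KO populations are targets. Each group was 1 Affymetrix Mouse Gene 2.0 ST array, an array of short probes summarized per transcript, and no source used here gives the number, age or sex of the mice behind an array. With 1 array per group no difference has a replicate check and none was tested. Values are log2 signals after quantile normalization, and a difference of 1 on this scale is 2-fold. The signal of different probes is not comparable, so levels are compared between arrays and not between genes.

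Glycolysis converts glucose into pyruvate in the cytosol, and activated and dividing T cells are known for a high rate of it, with much of the pyruvate leaving as lactate. The hypoxia-inducible factor HIF-1α is a transcription factor that is degraded while oxygen is plentiful and that, when stable, raises many glycolytic genes and the kinases that keep pyruvate out of the mitochondria. In T cells it is also made in response to antigen receptor and mTOR signals, and regulatory T cells are known to rely less on glycolysis than effector T cells do.

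Prdm1 itself read 7.32 in KO TFR and 8.21 in WT TFR cells, and 7.59 in KO non-TFR and 7.80 in WT non-TFR cells; the exons deleted and those the probe covers are not given, so this is a limited check of the labels. Cxcr5, on which the cells were gated, was 1.49 higher in KO TFR than in KO non-TFR cells and 1.46 higher in WT TFR than in WT non-TFR cells. It was also 0.87 higher in KO TFR than in WT TFR cells and 0.84 higher in KO non-TFR than in WT non-TFR cells. Pdcd1, which encodes PD1, was 0.82 higher in KO TFR than in WT TFR cells and 1.52 higher in KO non-TFR than in WT non-TFR cells. Foxp3 lay between 11.87 and 12.45, and 3 of 3 measured T cell markers and 5 of 5 regulatory T cell markers were above the median gene mean of 5.91, the limit used here for an expressed gene, on every array. The KO TFR array was the lowest of the 4 for Foxp3, 0.49 below WT TFR cells, and for Il2ra, 0.67 below WT TFR and 1.23 below KO non-TFR cells. In KO TFR minus WT TFR, 4 of the 5 regulatory T cell markers were below 0, with a median of -0.29, where 52.4% of all genes were above 0. Of markers of other cells, 2 of 6 B cell, 1 of 8 myeloid, 1 of 5 CD8 and natural killer and 0 of 3 erythroid markers had means above that limit. The B cell markers Cd79a and Ms4a1 lay between 3.98 and 5.69, below it on all 4 arrays, whereas Cd79b lay between 8.08 and 8.42, above it on all 4. Pax5 and Blk also had means below the limit. Pax5 was 0.92 higher in KO TFR than in KO non-TFR cells and 0.64 higher in WT TFR than in WT non-TFR cells. Blk was 0.67 higher in KO TFR than in KO non-TFR cells and 0.83 higher than in WT TFR cells, and its WT population difference was -0.06. TFR minus non-TFR in the KO and the WT was -0.27 and -0.10 for Cd79a, -0.09 and -0.10 for Ms4a1, and -0.16 and 0.33 for Cd79b. In each population comparison 3 of 6 B cell markers were above 0, against 50% of all genes in the KO and 51.7% in the WT. The log2 signals of the B cell markers summed to 39.01 in KO TFR, 37.26 in WT TFR, 35.72 in KO non-TFR and 34.27 in WT non-TFR cells. Cd22 read 9.27, 8.27, 7.04 and 5.99 in the same order. The myeloid markers summed to 43.46, 42.16, 41.84 and 41.41 in that order, and Cd68 had the widest span of the 8, at 1.70. In KO TFR minus KO non-TFR, 5 of the 8 myeloid markers were above 0, against 50% of all genes, with a median of 0.07. Adgre1 and Clec7a were lower there, by 0.40 and 0.58. Cd68, a lysosomal protein of macrophages and the 1 expressed myeloid marker, read 9.17 in KO TFR, 7.97 in WT TFR, 7.59 in KO non-TFR and 7.47 in WT non-TFR cells. Hif1a and Aldoc stand in this order, and so do Hk1, Tpi1, Gapdh, Pgk1, Pgam1, Pkm, Pgd, Cxcr5, Pdcd1 and Bcl6. The share of all genes in this order was not counted, so the shared order is not read as a link between these genes. KO TFR was the highest array for 30.4% of all genes, and WT non-TFR the lowest for 31.7%. Cd8b1, the 1 expressed marker of CD8 and natural killer cells, read 8.73 in KO TFR, 8.73 in WT TFR, 9.29 in KO non-TFR and 9.42 in WT non-TFR cells. It was thus lower in TFR cells, by 0.56 in the KO and by 0.69 (1.61-fold) in the WT. The part of these markers of other cells in the results was not tested.

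Against KO non-TFR cells, KO TFR cells had 23 of the 33 measured members above 0, against 50% of all genes, with a median difference of 0.26, where the median of all genes was close to 0. In sorted cells measured in bulk, a change in the share of cells that express a gene and a change in RNA per cell cannot be told apart. Against WT non-TFR cells, WT TFR cells had 18 of 33 above 0, against 51.7% of all genes, with a median of 0.08 against 0.01 over all genes. Between the genotypes, KO TFR minus WT TFR had a median of 0.13 over the members (0.01 over all genes) with 23 of 33 above 0, against 52.4% of all genes, and KO non-TFR minus WT non-TFR a median of 0.04 (0.03 over all genes) with 18 of 33 above 0, against 56.1% of all genes. As deposited, without quantile normalization, the median of all genes was itself 0.12 in the KO and 0.11 in the WT population comparison, and the members' medians lay 0.24 and 0.09 above it.

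At least 1.5-fold higher in KO TFR than in KO non-TFR cells were 9 of 33 members, or 27.3%, against 7.85% of all genes. They were Hif1a, Egln3, Bnip3, Aldoc, Tpi1, Pgk1, Pgam1, Pdk3 and Pgd. Bnip3 at 0.5875 and Pgd at 0.5892 lay just past 1.5-fold, which is 0.585, and with 75th percentile centring 7 members passed. Pdk1 was the 1 member at least 1.5-fold lower, against 6.88% of all genes. In WT TFR against WT non-TFR cells, 7 members, or 21.2%, were at least 1.5-fold higher, against 8.69% of all genes, and Pdk1 was again the 1 that was lower, against 5.97%. Those 7 were Hif1a, Egln3, Aldoc, Tpi1, Pgam1, Pdk3 and Slc16a1. These population comparisons share no array, and the 6 genes Hif1a, Egln3, Aldoc, Tpi1, Pgam1 and Pdk3 passed 1.5-fold in both. With the probes of each gene averaged, 8 members passed in the KO and 6 in the WT, and Hif1a passed in neither. At least 2-fold higher were 3 members in the KO (2.23% of all genes) and 4 in the WT (2.69%), and at least 2-fold lower were 0 in the KO and 1, Pdk1, in the WT (1.18% of all genes in each).

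**Figure D1:**
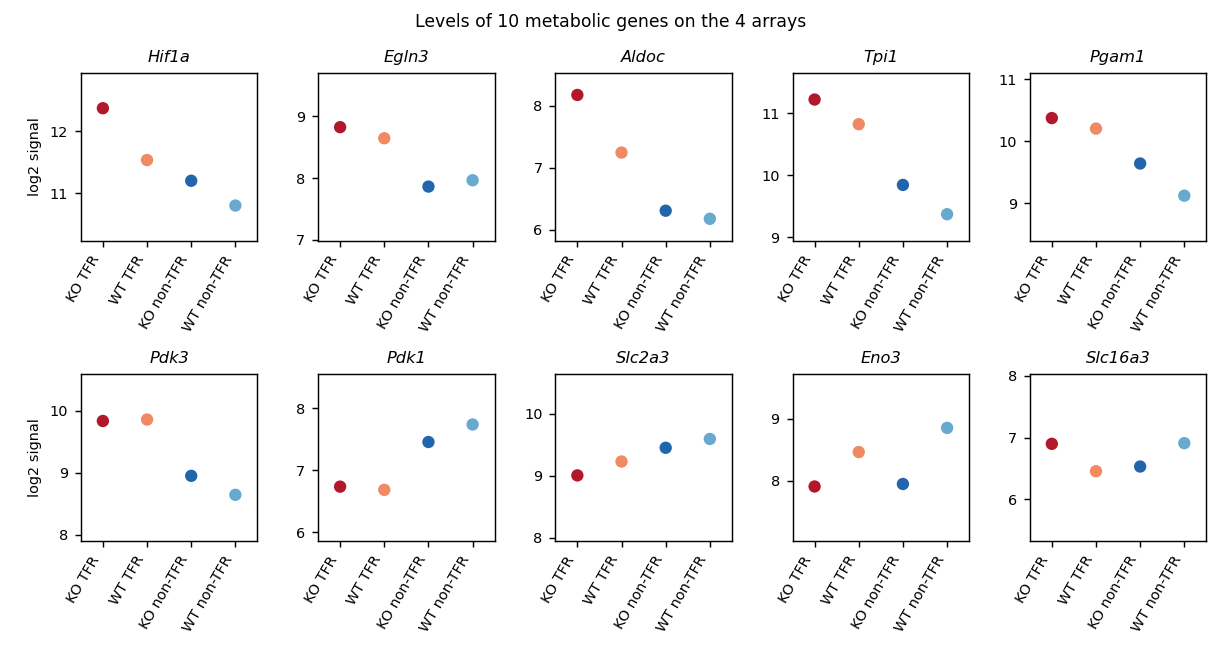
Log2 signal of 10 members on the 4 arrays, 1 point per array, in the order KO TFR, WT TFR, KO non-TFR and WT non-TFR; every panel spans the same height on the log2 scale but starts at its own level. Hif1a, Egln3, Aldoc, Tpi1, Pgam1 and Pdk3 are higher on both TFR arrays than on both non-TFR arrays, Pdk1 and Slc2a3 lower, Eno3 is low on the KO arrays, and Slc16a3 is high in KO TFR and WT non-TFR cells.

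Promoter windows of members with large differences are shown because hypoxia-inducible factors bind a short core sequence in the genes they control. The windows are RefSeq's, on GRCm38.p6, run from 250 bases before to 50 bases after the first listed start of each gene, and are written 5′ to 3′ on the gene's strand. The core was searched as ACGTG or GCGTG on both strands, and matches are in capitals (CACGT and CACGC are the same letters read from the other strand, and CACGTG holds ACGTG on both). Hif1a, Aldoc, Pdk3 and Pgam1 are the 4 members with the largest differences among those described in full whose window holds a match, and Pdk1, which went the other way, was added after its values were seen.
Hif1a (chr12:73907617-73907916, plus strand): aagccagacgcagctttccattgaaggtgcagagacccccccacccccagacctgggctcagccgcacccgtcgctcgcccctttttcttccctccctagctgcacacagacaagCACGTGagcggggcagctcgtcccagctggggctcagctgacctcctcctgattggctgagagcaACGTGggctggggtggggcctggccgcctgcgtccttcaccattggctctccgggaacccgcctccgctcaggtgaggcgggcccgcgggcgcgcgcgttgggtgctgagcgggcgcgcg
Aldoc (chr11:78322823-78323122, plus strand): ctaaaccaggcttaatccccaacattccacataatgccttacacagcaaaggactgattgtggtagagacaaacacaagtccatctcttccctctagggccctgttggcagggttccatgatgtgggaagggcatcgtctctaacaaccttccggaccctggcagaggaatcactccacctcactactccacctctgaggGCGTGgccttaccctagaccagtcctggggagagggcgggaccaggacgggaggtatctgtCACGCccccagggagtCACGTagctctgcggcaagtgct
Pgam1 (chr19:41911621-41911920, plus strand): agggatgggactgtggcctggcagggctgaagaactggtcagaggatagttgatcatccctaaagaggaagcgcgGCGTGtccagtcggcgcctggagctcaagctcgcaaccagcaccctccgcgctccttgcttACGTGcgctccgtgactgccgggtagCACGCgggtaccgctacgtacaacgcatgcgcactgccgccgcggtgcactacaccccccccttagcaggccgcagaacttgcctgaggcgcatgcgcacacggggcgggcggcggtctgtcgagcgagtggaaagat
Pdk3 (chrX:93832101-93832400, minus strand): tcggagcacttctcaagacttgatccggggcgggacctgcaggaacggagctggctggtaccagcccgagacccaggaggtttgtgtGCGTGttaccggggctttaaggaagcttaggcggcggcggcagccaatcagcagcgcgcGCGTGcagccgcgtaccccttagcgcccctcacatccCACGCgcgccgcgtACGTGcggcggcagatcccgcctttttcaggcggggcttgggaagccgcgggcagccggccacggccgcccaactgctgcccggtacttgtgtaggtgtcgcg
Pdk1 (chr2:71872974-71873273, plus strand): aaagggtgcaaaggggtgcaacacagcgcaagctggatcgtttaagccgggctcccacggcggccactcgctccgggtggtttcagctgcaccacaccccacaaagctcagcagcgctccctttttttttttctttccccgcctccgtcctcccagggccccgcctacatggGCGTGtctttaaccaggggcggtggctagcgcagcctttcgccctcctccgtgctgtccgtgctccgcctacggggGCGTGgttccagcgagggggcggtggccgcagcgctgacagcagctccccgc

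The core occurred 3 times each in the windows of Hif1a, Aldoc and Pgam1, 4 times in that of Pdk3 and 2 times in that of Pdk1, counting each strand. Windows were listed for 38 of the 40 members, and 31 of them, or 81.6%, held either form, against 43.8% of the 27025 genes in the table and 63.0% of the 8793 expressed genes with a window. ACGTG was in 47.4% of member windows and in 26.2% of those of expressed genes, and GCGTG in 60.5% and 51.3%. The core contains a CG, so its frequency goes with the base composition of a window. Tpi1, which also had a large population difference, had no match in its window, and Ldha, which differed little, had 7. A match is a description of the letters and says nothing of binding in these cells.

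Hif1a, which encodes the oxygen-regulated subunit of HIF-1, had the largest difference of its group in both population comparisons and in KO TFR minus WT TFR. It read 12.37 in KO TFR, 11.53 in WT TFR, 11.20 in KO non-TFR and 10.80 in WT non-TFR cells. Both TFR arrays lay above both non-TFR arrays, and the KO array lay above the WT array in each population. The differences were 1.17 (2.25-fold) between KO TFR and KO non-TFR cells, a value exceeded by 2.18% of the 11090 expressed genes, and 0.73 (1.66-fold) between WT TFR and WT non-TFR cells. KO TFR minus WT TFR was 0.84 (1.79-fold, exceeded by 0.739% of expressed genes), and KO non-TFR minus WT non-TFR was 0.40 (1.32-fold). A second, dim probe of Hif1a lay between 4.92 and 5.20 and did not follow this order, so that averaging the probes would give 0.48 and 0.28 for KO TFR against KO non-TFR and against WT TFR cells, 0.46 for WT TFR and 0.26 for KO non-TFR against WT non-TFR cells.

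The prolyl hydroxylases that mark HIF-1α for degradation, and Vhl, the recognition subunit of the ligase that removes it, differed among themselves. Egln3, a hydroxylase that is itself a known target of HIF, read 8.82 in KO TFR, 8.64 in WT TFR, 7.86 in KO non-TFR and 7.96 in WT non-TFR cells, so that TFR cells were higher in each genotype, by 0.96 (1.94-fold) in the KO and 0.68 (1.60-fold) in the WT. Egln1, the main oxygen sensor of the family, spanned 8.31 to 8.61, with a difference of 0.30 between KO TFR and KO non-TFR cells and of 0.04 between WT TFR and WT non-TFR cells. Vhl read 6.40 in KO TFR, 6.49 in WT TFR, 6.46 in KO non-TFR and 6.88 in WT non-TFR cells, where the WT non-TFR array stood above the other 3. Bnip3, a mitochondrial protein that marks mitochondria for autophagy, had a mean below the limit, read 6.25 in KO TFR, 5.80 in WT TFR, 5.66 in KO non-TFR and 5.82 in WT non-TFR cells, and was highest in KO TFR cells.

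The transporters that bring glucose into the cell were not among the genes that were higher in TFR cells. Slc2a3 read 9.003 in KO TFR, 9.23 in WT TFR, 9.45 in KO non-TFR and 9.59 in WT non-TFR cells. Both TFR arrays lay below both non-TFR arrays, by 0.45 (1.36-fold) in the KO and 0.36 (1.29-fold) in the WT. As deposited these differences were -0.30 and -0.24. Slc2a1, the transporter that T cell activation raises, read 10.49 in KO TFR, 10.30 in WT TFR, 10.56 in KO non-TFR and 10.70 in WT non-TFR cells. It was 0.41 (1.32-fold) lower in WT TFR than in WT non-TFR cells, a difference of -0.28 as deposited and of -0.16 with its probes averaged, whereas its difference of -0.08 between KO TFR and KO non-TFR cells changed sign as deposited.

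In the upper part of glycolysis, which splits glucose into triose phosphates, the members at the split differed most. Aldoc, an aldolase isoform best known from brain, read 8.17 in KO TFR, 7.24 in WT TFR, 6.31 in KO non-TFR and 6.18 in WT non-TFR cells. The difference between KO TFR and KO non-TFR cells was 1.87 (3.65-fold), which 0.622% of expressed genes exceeded, that between WT TFR and WT non-TFR cells was 1.07 (2.10-fold), and that between KO TFR and WT TFR cells was 0.93 (1.91-fold). KO non-TFR and WT non-TFR cells were 0.13 apart. Tpi1, which interconverts the triose phosphates, read 11.22 in KO TFR, 10.82 in WT TFR, 9.84 in KO non-TFR and 9.37 in WT non-TFR cells. Its population difference was of similar size in both genotypes, 1.38 (2.60-fold) in the KO and 1.45 (2.74-fold) in the WT, and the KO array was 0.40 and 0.47 above the WT array in TFR and non-TFR cells.

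The hexokinases and phosphofructokinases, which catalyse the committed phosphorylations, lay closer together. Hk2, the inducible hexokinase, read 6.42 in KO TFR, 6.15 in WT TFR, 6.44 in KO non-TFR and 6.03 in WT non-TFR cells, so that the KO array was higher in both populations, by 0.27 and 0.41. Hk1, the constitutive form, spanned 7.36 to 7.56. Pfkl, the liver-type subunit, read 8.39 in KO TFR, 7.98 in WT TFR, 8.03 in KO non-TFR and 8.11 in WT non-TFR cells, with KO TFR cells above the other 3. Pfkp, the platelet-type subunit, spanned 10.32 to 10.66 and was also highest in KO TFR cells, and Pfkm, the muscle-type subunit, had a mean below the limit. Every one of the 7 measured members of the upper part was above 0 in KO TFR minus WT TFR, with a range of 0.02 to 0.93, where 52.4% of all genes were above 0. Of these 7, Aldoc was at least 1.5-fold apart in that comparison.

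**Figure D2:**
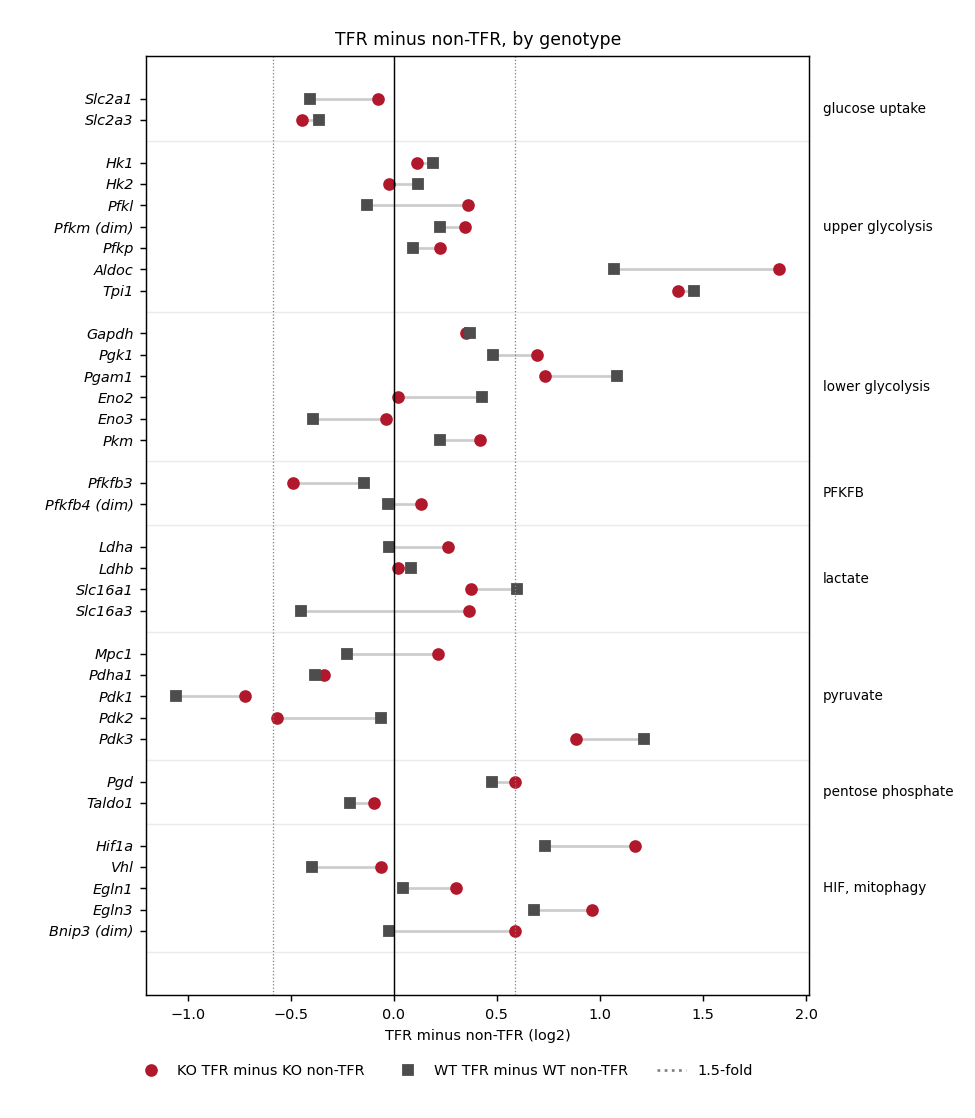
Log2 difference of TFR minus non-TFR for each of the 33 measured members, grouped by role, with circles for the KO arrays and squares for the WT arrays; dotted lines mark 1.5-fold and "dim" marks members with a mean below 5.91. Aldoc, Tpi1, Pgam1, Pdk3, Hif1a and Egln3 lie right of the 1.5-fold line in both genotypes and Pdk1 left of it.

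In the lower part, which yields pyruvate and ATP, most members were higher in TFR cells and Eno3 was not. Pgam1, the phosphoglycerate mutase, read 10.38 in KO TFR, 10.21 in WT TFR, 9.64 in KO non-TFR and 9.12 in WT non-TFR cells. It was 0.73 (1.66-fold) higher in KO TFR than in KO non-TFR cells and 1.08 (2.12-fold) higher in WT TFR than in WT non-TFR cells, and its second probe gave 0.58 and 0.77. Pgk1, the first ATP-yielding kinase of the pathway, read 10.42 in KO TFR, 9.97 in WT TFR, 9.73 in KO non-TFR and 9.49 in WT non-TFR cells. Its differences were 0.69 (1.62-fold) between the KO populations, 0.48 (1.40-fold) between the WT populations and 0.45 (1.37-fold) between KO TFR and WT TFR cells. Gapdh, often used as a reference gene, read 12.87 in KO TFR, 12.74 in WT TFR, 12.52 in KO non-TFR and 12.37 in WT non-TFR cells, so that it stood 0.35 and 0.37 higher in the TFR arrays of the KO and the WT, with the same direction under every scaling tried; the KO value was 0.15 with 75th percentile centring and 0.11 with the probes averaged. Its dimmest of 3 probes gave -0.37 in the KO and 0.34 in the WT, and its difference of 0.13 between KO TFR and WT TFR cells became -0.08 when the probes were averaged. Pkm, a pyruvate kinase, spanned 10.71 to 11.16 with its highest value in KO TFR cells.

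The enolases that were measured are the neuron and muscle forms. Eno3, the muscle enolase, read 7.91 in KO TFR, 8.47 in WT TFR, 7.95 in KO non-TFR and 8.86 in WT non-TFR cells. The KO array was lower in both populations, by 0.56 (1.47-fold) in TFR cells and by 0.91 (1.87-fold) in non-TFR cells, and in non-TFR cells 0.189% of expressed genes had a lower difference. Eno3 thus had the lowest genotype difference of the 33 measured members in both populations. Eno2, the neuronal form, read 6.95 in KO TFR, 6.98 in WT TFR, 6.93 in KO non-TFR and 6.56 in WT non-TFR cells, with WT non-TFR cells below the other 3. Gapdh, Pgk1, Pgam1, Tpi1 and Ldha have processed copies elsewhere in mammalian genomes, and signal shared with near-identical sequences could not be separated here.

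The bifunctional enzymes that set fructose 2,6-bisphosphate, the activator of phosphofructokinase, showed small differences. Pfkfb3, the form induced on proliferation, read 7.00 in KO TFR, 7.26 in WT TFR, 7.49 in KO non-TFR and 7.40 in WT non-TFR cells, so that KO TFR cells were lowest and 0.49 (1.40-fold) below KO non-TFR cells. Pfkfb4 spanned 5.62 to 5.85, below the limit on all 4 arrays.

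The 4 lactate genes were all above 0 in KO TFR minus KO non-TFR, by 0.02 to 0.37, where 50% of all genes were, and 2 of 4 were above 0 in each of the other 3 comparisons. Ldha, the dehydrogenase subunit that favours lactate, read 7.37 in KO TFR, 7.23 in WT TFR, 7.10 in KO non-TFR and 7.26 in WT non-TFR cells, a span of 0.26 over the 4 arrays. Ldhb, the subunit that favours pyruvate, spanned 8.55 to 8.63. Slc16a1, a monocarboxylate transporter, read 9.04 in KO TFR, 9.08 in WT TFR, 8.67 in KO non-TFR and 8.49 in WT non-TFR cells, which put it 0.37 (1.29-fold) higher in KO TFR than in KO non-TFR cells and 0.59 (1.51-fold) higher in WT TFR than in WT non-TFR cells. Slc16a3, the lactate exporter of glycolytic cells, read 6.90 in KO TFR, 6.46 in WT TFR, 6.53 in KO non-TFR and 6.91 in WT non-TFR cells. KO TFR and WT non-TFR cells were thus the higher pair, and WT TFR and KO non-TFR cells the lower pair.

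The pyruvate dehydrogenase kinases, which switch off the entry of pyruvate into the TCA cycle, went in opposite directions between the populations. Pdk1, the form known as a HIF target, read 6.74 in KO TFR, 6.68 in WT TFR, 7.46 in KO non-TFR and 7.74 in WT non-TFR cells. It was 0.72 (1.65-fold) lower in KO TFR than in KO non-TFR cells and 1.05 (2.08-fold) lower in WT TFR than in WT non-TFR cells, where 1.06% of expressed genes had a lower difference. Averaging it with its second probe, which lay below 5 on all 4 arrays, would give -0.28 and -0.42. Pdk3 read 9.84 in KO TFR, 9.86 in WT TFR, 8.95 in KO non-TFR and 8.65 in WT non-TFR cells, and so was higher in TFR cells by 0.89 (1.85-fold) in the KO and 1.22 (2.32-fold) in the WT. Pdk2 read 7.43 in KO TFR, 7.62 in WT TFR, 7.99 in KO non-TFR and 7.68 in WT non-TFR cells, with a difference of -0.57 (1.48-fold) between the KO populations and of -0.06 between the WT populations. Pdha1, the catalytic subunit that these kinases phosphorylate, was lower in TFR cells by 0.34 in the KO and 0.38 in the WT. Mpc1, a subunit of the carrier that brings pyruvate into mitochondria, read 9.27 in KO TFR, 9.23 in WT TFR, 9.05 in KO non-TFR and 9.45 in WT non-TFR cells, and the differences of KO TFR from KO non-TFR and from WT TFR cells changed sign when its probes were averaged.

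In the pentose phosphate pathway, which supplies NADPH and ribose, 2 of 4 members were measured. Pgd, the second dehydrogenase of the oxidative branch, read 10.38 in KO TFR, 10.10 in WT TFR, 9.79 in KO non-TFR and 9.63 in WT non-TFR cells. Both TFR arrays lay above both non-TFR arrays, by 0.59 in the KO and 0.47 in the WT. Taldo1, a transaldolase of the non-oxidative branch, spanned 9.83 to 10.14 and was highest in WT non-TFR cells.

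Set together, 16 of the 33 measured members, or 48.5%, were higher on both TFR arrays than on both non-TFR arrays, against 32% of all genes, and 7, or 21.2%, lower on both, against 30.9%. The KO TFR array was the highest of the 4 for 17 members, or 51.5%, against 30.4% of all genes. Cell division markers moved with the same split and more strongly: all 28 measured markers had a higher value in TFR cells in each genotype, with medians of 1.76 in the KO and 2.20 in the WT, and all 28 were higher in KO non-TFR than in WT non-TFR cells with a median of 0.64, while KO TFR minus WT TFR had a median of 0.05. Their part in the differences of the members was not tested.

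The genotype comparisons held fewer large differences. KO TFR against WT TFR cells had 2 of 33 members, or 6.06%, at least 1.5-fold higher, Aldoc and Hif1a, against 1.81% of all genes, and none at least 1.5-fold lower, against 1.24%. KO non-TFR against WT non-TFR cells had none at least 1.5-fold higher, against 2.44%, and Eno3 alone at least 1.5-fold lower, against 1.01%. No member passed 2-fold in either genotype comparison, where 0.289% of all genes were higher and 0.162% lower by that much in KO TFR than in WT TFR cells, and 0.433% higher and 0.0766% lower in KO non-TFR than in WT non-TFR cells. Of expressed genes, the middle 95% spanned -0.50 to 0.56 in KO TFR minus WT TFR, and Aldoc, Hif1a and Eno3 lay outside it. It spanned -0.44 to 0.68 in KO non-TFR minus WT non-TFR, and Eno3 lay outside it. The direction was the same in both populations for 16 of 33 members, or 48.5%, against 55.5% of all genes, whereas the population difference had the same direction in both genotypes for 26 of 33, or 78.8%, against 74.9%.

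**Figure D3:**
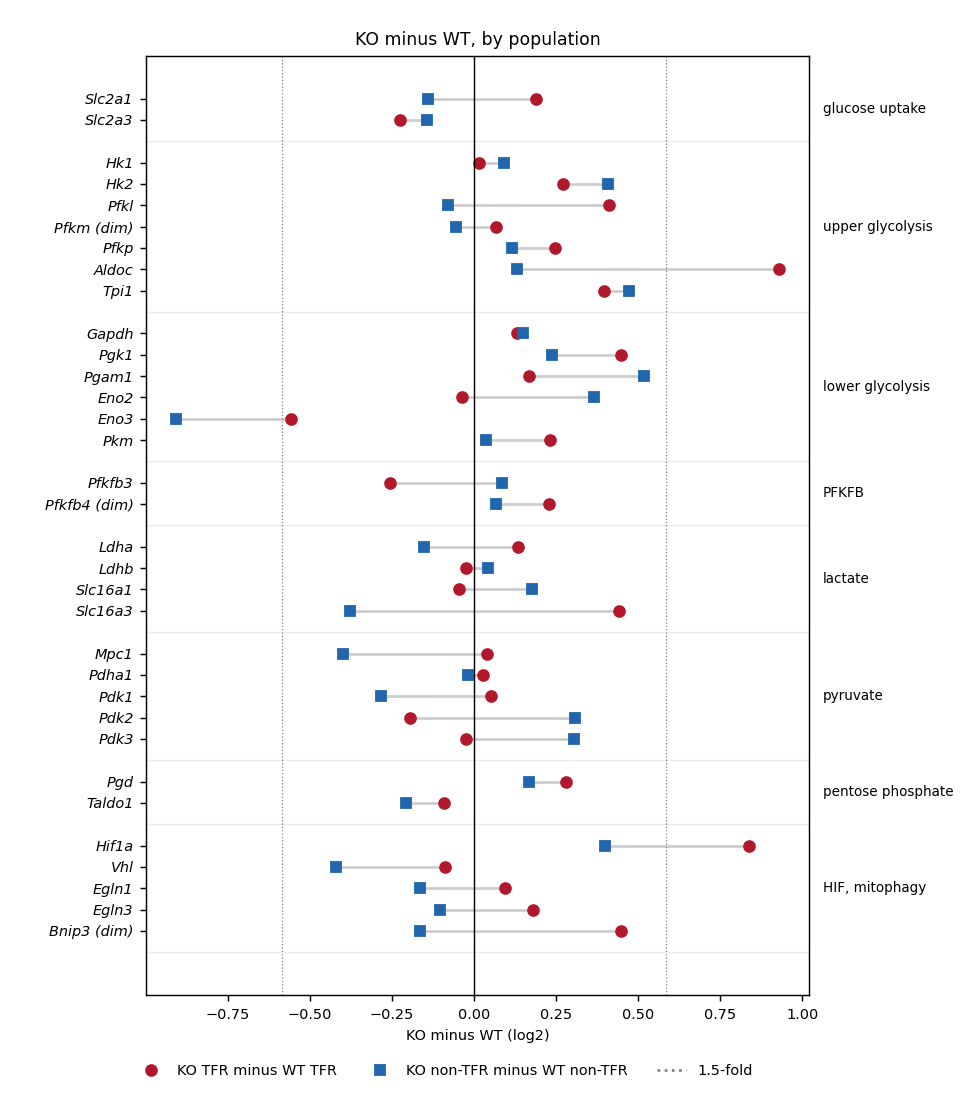
Log2 difference of KO minus WT for each of the 33 measured members, grouped by role, with circles for TFR and squares for non-TFR cells; dotted lines mark 1.5-fold and "dim" marks members with a mean below 5.91. Aldoc and Hif1a are the circles past the right line, and Eno3 lies furthest left in both populations.

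The signed genotype difference in TFR cells minus that in non-TFR cells was above 0 for all 5 measured members of the HIF group, against 47.1% of all genes. It lay between 0.26 (Egln1) and 0.61 (Bnip3, whose mean is below the limit), with Hif1a at 0.44. For Hif1a this depends on the brightest probe, since its second, dim probe gave -0.39. For Vhl and Egln1 the KO minus WT difference was nearer to 0 in TFR cells, at -0.09 and 0.09, than in non-TFR cells, at -0.42 and -0.16. The middle 95% of expressed genes for this difference of differences spanned -0.70 to 0.58. Of members with means above the limit, 2 lay outside it, Slc16a3 at 0.82 and Aldoc at 0.80. Bnip3, below the limit, also lay past it at 0.61. Over the 33 members its median was 0.13, against -0.02 over all genes, and 3 members, Slc16a3, Aldoc and Bnip3, were higher by 1.5-fold or more, against 2.78% of all genes, and 0 lower, against 3.94%. Over the cell division markers the same quantity had a median of -0.58.

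Other glycolysis genes were often dim, with 10 of 21 measured above the limit. Of these 21, KO TFR against KO non-TFR cells had 3 higher and 1 lower by 1.5-fold or more, and WT TFR against WT non-TFR cells 4 and 0, with medians of 0.11 and 0.03 (0.25 and 0.14 as deposited). These are 14.3% higher in the KO, against 7.85% of all genes, and 19.0% in the WT, against 8.69%. Lower were 4.76% in the KO, against 6.88% of all genes, and 0% in the WT, against 5.97%. Pgam2, Fbp1 and Gapdhs, counted in the KO, and Ldhc and Ldhd, counted in the WT, have means below the limit. Of expressed genes, Slc2a6 alone passed in the KO, and Slc2a6 and Galm in the WT. Slc2a6, a hexose transporter of leukocytes, read 8.0035 in KO TFR, 7.04 in WT TFR, 6.61 in KO non-TFR and 6.13 in WT non-TFR cells. This is the same order as Hif1a, Aldoc and several other members, but how many of all genes share it was not counted. Galm, which interconverts the anomers of glucose, read 10.32 in KO TFR, 10.30 in WT TFR, 9.93 in KO non-TFR and 9.50 in WT non-TFR cells.

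Other genes of the hypoxia response were split. Of 28 measured, KO TFR against KO non-TFR cells had 4 higher and 2 lower by 1.5-fold or more, and WT TFR against WT non-TFR cells 4 and 5. Higher were thus 14.3% in each genotype, against 7.85% of all genes in the KO and 8.69% in the WT, and lower 7.14% and 17.9%, against 6.88% and 5.97%. Ak4, Adm and P4ha2, counted among them, have means below the limit. Stc2, a secreted glycoprotein, was 1.05 and 0.68 higher in TFR cells of the KO and the WT, and Epas1, which encodes HIF-2α, 0.94 and 0.73 higher. The 5 that were lower in WT TFR cells, named after their values were seen, were Adm, Ndrg1, P4ha1, P4ha2 and Vegfa, of which Vegfa, the endothelial growth factor, read 6.32 in KO TFR, 6.23 in WT TFR, 6.86 in KO non-TFR and 6.98 in WT non-TFR cells. The medians of the hypoxia list were 0.03 in the KO and -0.01 in the WT population comparison, and their sign changed with the scaling, since they were 0.13 and 0.10 as deposited and -0.02 and -0.0008 with 75th percentile centring.

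**Figure D4:**
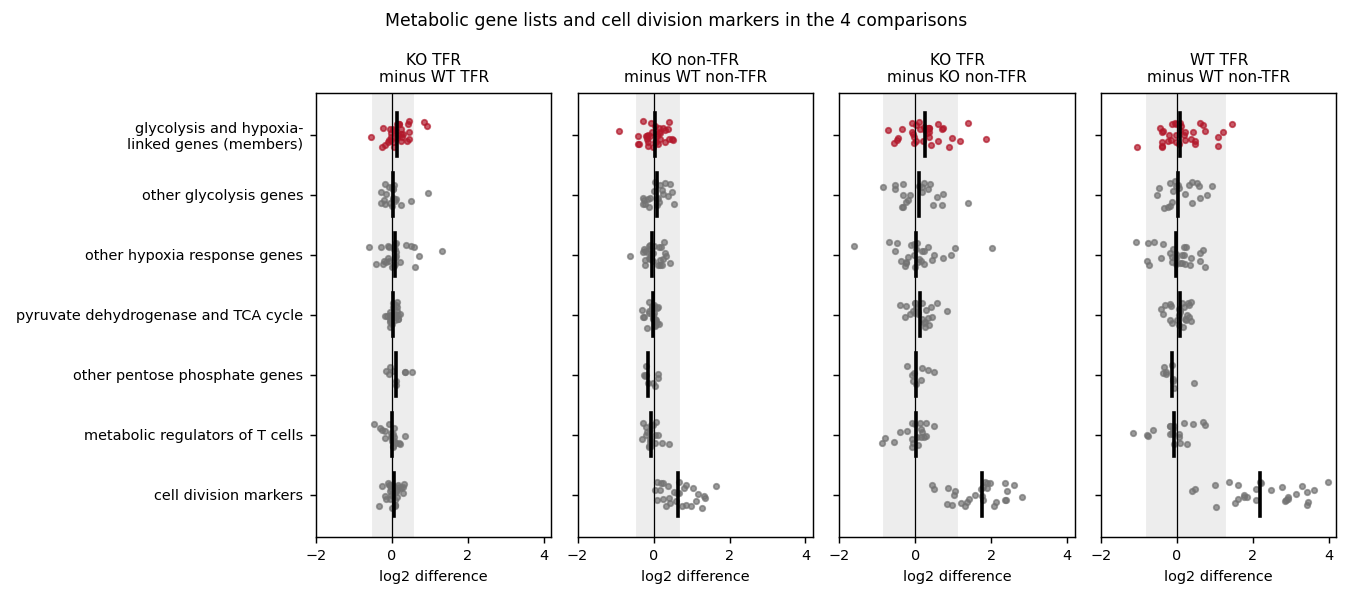
Log2 differences of the 33 measured members (red) and of 6 other lists (grey) in the 4 comparisons, 1 point per gene, with a black bar at each list's median and a grey band over the middle 95% of expressed genes. The members spread to both sides of 0, while the cell division markers lie right of 0 in both population comparisons and in KO non-TFR minus WT non-TFR.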

How the data were processed

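RNA of the 4 sorted populations was measured on Mouse Gene 2.0 ST arrays, 1 array per group, and samples were grouped by title. The deposited values are log2 signals made by the authors; the scale was inferred from their range of 2.23 to 13.82. MAS5 is named without version or role in the submitters' processing notes, and no source used here states how probes were background-corrected or summarized. No detection calls or replicate arrays bear on precision, which the number of arrays limits.

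Array medians as deposited spanned 0.105, so all 41345 probes were quantile normalized with limma 3.58.1 in R 4.3.3, which also removes a real shift common to most genes. Of the probes, 23521 had 1 gene in the platform annotation (dated, so symbols can be old), 1814 several and 16010 none. Only the first were used, with the brightest probe per gene (22180 genes). Genes were taken as expressed where their mean exceeded the median of all gene means, 5.91, which left 11090 genes and 30 of the 33 measured members. Comparisons are differences of 2 arrays, without tests, counted at 1.5-fold and 2-fold in Python 3.11.15. The 2-fold counting was tested in 1 comparison of simulated arrays with large planted shifts, and the 1.5-fold counting was not. That test does not measure the error of single arrays. The members and lists were chosen with earlier results of these data known. Described in full were the 3 members with the largest difference in each of 8 role groups, Hif1a, Gapdh and Ldha, and other members by range or, where it helped, on every array; of other lists, the 2 expressed genes with the largest difference. The build behind the probe annotation is not stated. Alternatives were other scalings, all probes per gene, filters on dim genes, a mean in place of the median and a floor.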

Additional observations from a re-analysis of the deposited data

Results flagged for a closer look

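With 1 array per group, a gene was singled out here when its difference had opposite signs in the 2 populations or genotypes, each at least 0.1 in size and with a mean above the expression limit. None of these oppositions was tested. Slc16a3, the lactate exporter, was 0.44 higher in KO TFR than in WT TFR cells and 0.38 lower in KO non-TFR than in WT non-TFR cells, a gap of 0.82, and for the same reason its population difference was 0.37 in the KO and -0.45 in the WT. Pdk2 differed by -0.20 between KO and WT TFR cells and by 0.31 between KO and WT non-TFR cells, a gap of -0.51. Slc2a1 differed by 0.19 and -0.14 (gap 0.33), Ldha by 0.13 and -0.15 (gap 0.29) and Egln3 by 0.18 and -0.10 (gap 0.28) in the same pair of comparisons. With the mean of all probes Slc2a1 was -0.02 and -0.08, no longer opposite. Pfkl differed by 0.36 between KO TFR and KO non-TFR cells and by -0.13 between WT TFR and WT non-TFR cells (gap 0.49), and Mpc1 by 0.21 and -0.23 (gap 0.44). The WT value of Pfkl was -0.01 as deposited, and the KO value of Mpc1 turned below 0 with the mean of all probes.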

How the results depend on the processing

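All 5 medians over the members kept their sign under every alternative run, and all moved by less than 0.1 except that of WT TFR minus WT non-TFR, 0.20 as deposited against 0.08. Single genes moved more. Of the differences of members described in full, 32 moved by 0.1 or more as deposited and 52 did not. With the mean of all probes 12 moved and 72 did not. As deposited, 5 members changed sign in KO TFR minus KO non-TFR (Slc2a1, Hk2, Eno3, Taldo1 and Vhl). In WT TFR minus WT non-TFR 4 did (Pfkfb4, Ldha, Pdk2 and Bnip3). Counts at 1.5-fold stayed within 1.5 times with other scalings, a floor and the median filter. With the mean of all probes, KO TFR minus WT TFR had 1 member higher in place of 2, and Pdk1 was no longer called lower, leaving 0 members in both population comparisons; these genes have a dim extra probe. Over the 20 members above the 75th percentile, KO TFR minus WT TFR had 1 member higher, both population comparisons had 0 lower and the difference of genotype differences had 0 members higher in place of 3, since that filter removes genes. No paired analysis was possible because each group is 1 array and the labels give no replicate numbers. The files hold no background measure, and Bnip3, Pfkm and Pfkfb4, with means below 5.91, may lie near it.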

Other observations

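The TCA cycle and the pyruvate dehydrogenase complex, outside the list above, spread to both sides of 0. Of 24 measured genes, 16 were above 0 in KO TFR minus KO non-TFR, against 50% of all genes, with a median of 0.13 (0.27 as deposited), and 17 in WT TFR minus WT non-TFR, against 51.7%, with a median of 0.09 (0.19 as deposited), and the differences spanned -0.39 to 0.83 in the KO and -0.42 to 0.38 in the WT. Cs, the citrate synthase that starts the cycle, read 10.49 in KO TFR, 10.36 in WT TFR, 10.06 in KO non-TFR and 10.04 in WT non-TFR cells, and Sucla2, a subunit of succinyl-CoA ligase, read 9.002 in KO TFR, 8.88 in WT TFR, 8.44 in KO non-TFR and 8.62 in WT non-TFR cells. Of 9 other pentose phosphate genes, 1 was above 0 in WT TFR minus WT non-TFR, against 51.7% of all genes, with a median of -0.14 there and of 0.02 in KO TFR minus KO non-TFR. As deposited these medians were -0.03 and 0.15. Rpia, the ribose phosphate isomerase, was 0.33 higher in KO TFR than in KO non-TFR cells and 0.35 lower in WT TFR than in WT non-TFR cells, and H6pd, which makes NADPH in the endoplasmic reticulum, differed by -0.04 and -0.35.

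Among regulators of T cell metabolism, Pik3ip1 and Foxo1 were lower on the TFR arrays. Pik3ip1, an inhibitor of PI3 kinase, read 7.64 in KO TFR, 7.66 in WT TFR, 8.51 in KO non-TFR and 8.80 in WT non-TFR cells. Foxo1, a transcription factor of resting T cells, read 9.94 in KO TFR, 10.19 in WT TFR, 10.73 in KO non-TFR and 10.94 in WT non-TFR cells. Over the 20 measured regulators the medians were 0.01 in the KO and -0.08 in the WT population comparison, and the sign of each changed with the scaling. By 1.5-fold or more, 0 were higher and 2 lower in the KO, against 7.85% and 6.88% of all genes. In the WT, 2 (10%) were higher, Irf4 by 0.73 and Akt1 by 0.68, against 8.69% of all genes. There 4 (20%) were lower, against 5.97%.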
